A study of Mus musculus with 44 samples.

Results

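Growth factor receptors decide which target-derived signals a sensory neuron or its glia can read. The 8 genes described here are 7 receptors of the neurotrophin and GDNF families (Ntrk2, Ntrk3, Ngfr, Ret, Gfra1, Gfra2 and Gfra3) and the neurotrophin Bdnf. They were taken by gene symbol from 3 expression tables of mouse dorsal root ganglia (DRGs), and are 8 of the 45882 genes of those tables. All 8 were measured in every library and all 8 passed the filter on low values in each table.

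Neurotrophins bind receptor tyrosine kinases of the Trk family. Ntrk2 encodes TrkB, the receptor of BDNF and NT-4, and Ntrk3 encodes TrkC, the receptor of NT-3. Ngfr encodes p75NTR, which binds all neurotrophins. The GDNF family signals through the kinase Ret, which needs a membrane-anchored co-receptor: Gfra1 binds GDNF, Gfra2 binds neurturin and Gfra3 binds artemin. In sensory ganglia these receptors mark classes of neurons, TrkC in proprioceptors and Ret with Gfra2 in many non-peptidergic nociceptors. Ntrk2 also makes truncated receptors that lack the kinase domain, a form well known from astrocytes.

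The study prepared 44 bulk RNA-seq libraries in 12 groups from C57BL/6 mice. Satellite glial cells (SGCs), which form a sheath around each sensory cell body, and whole ganglia came from naive mice 9 weeks old, with 4 libraries each. Mice of 9 to 11 weeks had a sciatic nerve ligation or a sham operation, and SGCs were collected after 3 days (4 ligated and 4 sham libraries) and after 14 days (4 and 4). Neurons were isolated 8 days after a partial ligation or a sham operation from mice of the same age. They make up 3 ligated and 3 sham libraries per sex, and 4 libraries each from the ligated and the opposite side of ligated mice whose sex the labels do not give. SGCs were sorted by flow cytometry from L3 and L4 ganglia that had been dissociated, fixed with paraformaldehyde and stained; the naive ganglia were treated alike but not sorted. The neurons came from L3 to L5 ganglia through a magnetic bead kit and were not fixed. The series text calls them nociceptors. No label gives the animal behind a library or says whether animals were pooled, so p-values measure only the spread between these libraries, which may be technical.

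Values are FPKM, fragments per length of transcript and per mapped fragments of the library, with the SD over libraries. Each of the 3 tables was scaled on its own, so levels are compared only within a table. Differences are on the log2(FPKM + 1) scale, which understates changes of low genes, and a gene is called when its limma p, adjusted over all genes tested, is under 0.05. Depth per library is unknown, since the tables hold no counts. The labelled cells were checked by marker genes. Summed over 8 satellite glial markers, naive SGC libraries held 11330 to 17000 FPKM and DRG libraries 3716 to 5546. Summed over 8 neuron markers, SGC libraries held 84.8 to 252.5 FPKM and DRG libraries 2326 to 4154. Endothelial markers (5 genes) were higher in naive SGC libraries, at 82.11 to 181.4 FPKM against 29.93 to 76.21 in DRG libraries. All 5 had a positive difference, and 2 were called higher. Macrophage markers (6 genes) were lower in naive SGC libraries, at 3.31 to 4.736 FPKM against 50.38 to 60.65. Neuron libraries held 6483 to 9804 FPKM of neuron markers and 3213 to 7123 of 7 nociceptor markers. They also held 724.9 to 2845 FPKM of 4 myelinating Schwann cell markers and 297.3 to 18900 of 3 erythrocyte and neutrophil markers.

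The gene-level values of Ntrk2 (chr13:58806569-59133970, GRCm38, plus strand) add up transcripts that end in different exons. In the GENCODE M21 annotation, 7 of its protein-coding transcripts carry a stop codon, and they use 5 distinct coding ends. The last 36 coding bases of 1 full-length and 1 truncated transcript are shown because these ends separate the kinase receptor from the form without kinase, which the FPKM values cannot do. Capitals mark the stop codon. Ntrk2-201 ends at chr13:59128318-59128353 in exon 18 of 18, and Ntrk2-202 at chr13:58932025-58932060 in exon 12 of 12, both on the plus strand.
Ntrk2-201: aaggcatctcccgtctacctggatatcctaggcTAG
Ntrk2-202: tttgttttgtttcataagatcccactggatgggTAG
The coding sequence is 2463 bases long in Ntrk2-201 and 1428 in Ntrk2-202. Both are read on 1 gene line in every library below, so no statement on the kinase or the truncated form follows from a level of Ntrk2.

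Among naive libraries, Ntrk2 was higher in sorted SGCs than in whole ganglia, and the other 7 genes were lower. All 8 were called by limma, 1 higher and 7 lower, and for none did the 4 SGC and 4 DRG libraries overlap. Over all 12907 genes tested, 44.9% were called, 16.9% as higher and 27.9% as lower. Groups that do not overlap were found for 16.7% of genes with SGCs higher and for 27.1% with SGCs lower. The median difference of all genes was −0.12.

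Ntrk2 stood at 109, 102, 109 and 103 FPKM in the 4 SGC libraries. In the 4 DRG libraries it stood at 48.3, 54.2, 52.7 and 63.3 FPKM. Every SGC library lay above every ganglion library, and the SGC libraries were close to each other. The means were 106 ± 3.88 and 54.6 ± 6.33 FPKM (n = 4 each), a log2 difference of 0.95 ± 0.12 (SE; limma adjusted p = 0.000286). Its SGC level was 193.6% of the ganglion level. The 8 satellite glial markers stood at 208.4% to 360.2% of theirs, so Ntrk2 lay just below that range, and the 8 neuron markers stood at 0.827% to 8.71%.

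The other neurotrophin receptors were low in SGCs. Ntrk3 (chr7:78175959-78738012, minus strand) stood at 1.07, 3.40, 1.19 and 0.890 FPKM in SGCs and at 44.0, 41.1, 32.6 and 30.7 in DRGs. SGCs thus held little of it (log2 difference −3.93 ± 0.28, SE; limma adjusted p = 2.31e-05). Ngfr (chr11:95568818-95587735, minus strand) stood at 1.05, 1.37, 0.301 and 0.821 FPKM in SGCs and at 36.7, 21.6, 30.8 and 26.4 in DRGs. Its difference was −4.00 ± 0.23 (SE; limma adjusted p = 1.05e-05), the most negative of the 8 genes. Mean levels in SGCs were 4.42% of the ganglion level for Ntrk3 and 3.06% for Ngfr, within the range of the neuron markers. In bulk libraries, fewer cells of a type and less RNA per cell cannot be told apart.

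Of the GDNF family receptors, Ret and Gfra3 were far lower in SGCs, Gfra1 less so and Gfra2 least. Ret (chr6:118151745-118197718, minus strand) stood at 1.41, 3.29, 1.45 and 0.799 FPKM in SGCs and at 17.5, 15.97, 17.5 and 11.0 in DRGs, a log2 difference of −2.64 ± 0.28 (SE; limma adjusted p = 0.000133). Gfra3, on chromosome 18, was listed at 0 in 1 SGC library and at 0.728, 0.938 and 0.0771 FPKM in the others, against 3.18, 7.37, 4.11 and 3.42 in DRGs. Its difference was −1.94 ± 0.30 (SE; limma adjusted p = 0.000962). For both receptors every SGC library was below every ganglion library.

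Gfra1 (chr19:58235604-58455909, minus strand) stood at 2.84, 2.01, 5.34 and 6.51 FPKM in SGCs and at 13.5, 14.6, 9.05 and 8.41 in DRGs. The groups did not overlap, but the highest SGC library and the lowest ganglion library were close (log2 difference −1.32 ± 0.32, SE; limma adjusted p = 0.00949). Gfra2 (chr14:70890120-70979838, plus strand) stood at 7.67, 11.2, 8.99 and 11.2 FPKM in SGCs and at 14.1, 12.3, 16.7 and 16.3 in DRGs. Its difference of −0.56 ± 0.17 (SE; limma adjusted p = 0.0233) lost its call under quantile normalization (adjusted p = 0.0773). It also lost it without any 1 of 4 libraries, SGC library 3 or DRG library 1, 3 or 4 (adjusted p from 0.0517 to 0.0698). Mean SGC levels were 36.7% of the ganglion level for Gfra1, 65.8% for Gfra2, 11.2% for Ret and 9.64% for Gfra3. All 4 stood above the range of the neuron markers, which ended at 8.71%. The 7 nociceptor markers ran up to 38.6% (Trpv1), a range that holds Gfra1, Ret and Gfra3 and not Gfra2, and the 5 myelinating Schwann cell markers ran from 1.48% to 74.5%.

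Bdnf (chr2:109674700-109727007, plus strand), the ligand of TrkB, stood at 0.571, 1.45, 0.497 and 0.195 FPKM in SGCs. In DRGs it stood at 16.3, 20.5, 13.6 and 11.0 FPKM, a log2 difference of −3.30 ± 0.26 (SE; limma adjusted p = 3.7e-05). The receptor with the highest level in sorted SGCs and its ligand thus differed in opposite directions between the 2 preparations. Of the 8 genes, Ntrk2 had the highest mean in SGCs and in DRGs. In SGCs it was followed by Gfra2 and Gfra1, whose ranges did not overlap, and the order of Gfra1, Ret, Ntrk3, Ngfr, Bdnf and Gfra3 is not resolved, because each range overlapped the next. In DRGs the ranges of Ntrk2 and Ntrk3 did not overlap, and those of Ret, Bdnf, Gfra2 and Gfra1 overlapped one with the next.

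**Figure D1:**
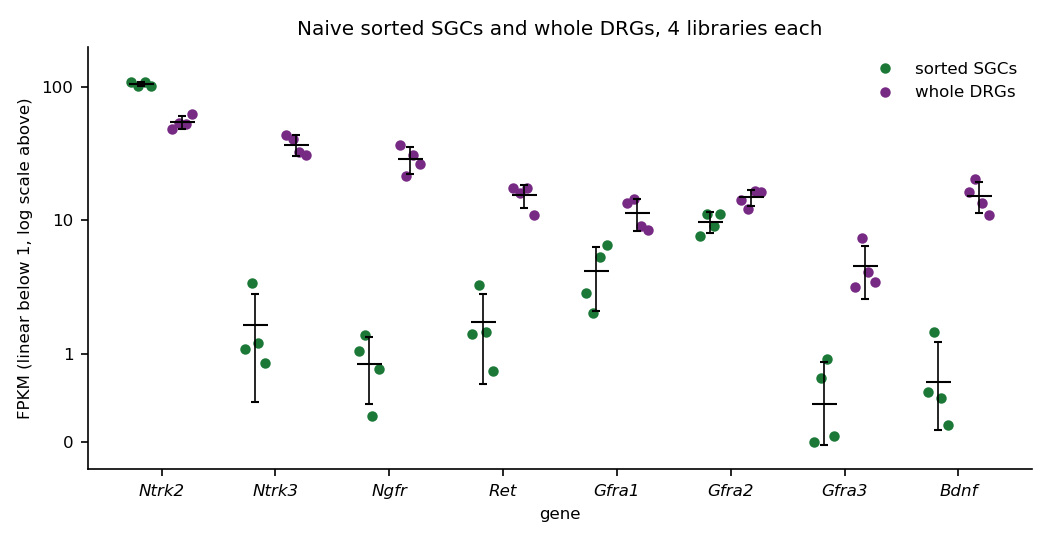
FPKM of the 8 genes (x axis) in 4 naive sorted SGC libraries (green) and 4 naive whole DRG libraries (purple); points are libraries, black bars the mean ± SD, and the y axis is linear below 1 and logarithmic above. Ntrk2 is the 1 gene with SGC libraries above all DRG libraries, and Gfra2 has the smallest gap between the groups.

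Other genes of these pathways were taken from a list of 48, of which 34 were tested in this comparison, 12 higher and 13 lower in SGCs (median −0.22). Of the receptors, Gfra4, the co-receptor of persephin, was lower (−2.60). Sortilin, Sort1, which sorts neurotrophins and their precursors, was higher by 0.57, and its relatives Sorcs1 and Sorcs2 by 1.03 and 0.94, while Sorcs3 was lower (−1.78). Ncam1, an adhesion molecule that can also bind GDNF, was higher by 1.58, and the heparan sulfate proteoglycan Sdc3 by 1.02. Lingo1, a partner of p75NTR, was lower (−1.79).

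The genes called lower among adaptors were Shc2 (−1.85), Grb2 (−0.94), Sos1 (−0.64), Kidins220 (−0.42), Dok4 (−2.61) and Bex3 (−1.57), and the 1 called higher was Gab1 (0.51). Of the feedback genes, the ERK inhibitor Spry2 (0.93), the ERK phosphatase Dusp6 (1.08) and the receptor inhibitor Lrig1 (0.91) were higher and Spry4 (−0.81) was lower. Plat, a protease that promotes cleavage of pro-BDNF through plasmin, was higher by 1.10. Of the targets of neurotrophin signalling, Egr1 (0.93) and Arc (1.03) were higher and Vgf (−2.69) was lower. The ligand called was Ntf3, which encodes NT-3, lower in SGCs (−1.74). It stood at 3.51 to 7.10 FPKM in DRGs and was listed at 0 in 2 SGC libraries.

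Of the ligands under the filter, Ntf5, Gdnf, Nrtn, Artn and Pspn reached at most 0.190 FPKM in any naive library, the value of Nrtn in 1 SGC library. Quantile normalization moved the median of all genes to 0.16 and turned the split of all calls from 2184 higher and 3605 lower to 3701 higher and 2691 lower. Under it, all 8 genes and the 25 called pathway genes kept their direction, and the pathway list had 13 higher and 11 lower. Sos1 (−0.44) and Kidins220 (−0.24) lost their calls under it, and the adaptor Frs2 was called higher (0.78).

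The comparisons after nerve ligation ask whether SGCs change their receptors when the axons of the neurons they wrap are injured. Neither day gave a call among the 8 genes by limma. In the background, 0.0646% of 13924 genes were called at 3 days, 0.0431% as higher and 0.0215% as lower, and 0.00718% at 14 days, where no gene was called lower. In the authors' deposited tables, none of the 8 genes is past 0.05 at 3 days, where 1.01% of all genes are (0.498% higher and 0.515% lower). At 14 days Gfra3 is past it as higher, where 1.05% of all genes are (0.641% higher and 0.412% lower). Neuron markers varied between libraries: their sum ran from 155.9 to 709.7 FPKM (median 341) in sham and from 337.7 to 624.2 (540.4) in ligated libraries at 3 days. At 14 days it ran from 183.4 to 416.5 (341.5) in sham and from 231.1 to 668.7 (616.8) in ligated libraries. Each of the 8 neuron markers was detected in each of these groups. Gene by gene, 3 of the 8 had a positive difference at 3 days (median −0.13) and 6 of the 8 at 14 days (median 0.37), with none called by limma, and the highest sum was that of a sham library. Nociceptor marker sums ran from 38.4 to 499.8 FPKM in sham and from 39.95 to 142.1 in ligated libraries at 3 days, and from 119.2 to 322.2 and from 49.97 to 228.3 at 14 days. Endothelial markers (5 genes) ran from 134 to 266.3 FPKM in sham and from 200.5 to 381.6 in ligated libraries at 3 days, and from 113.6 to 227.7 and from 163.3 to 315.5 at 14 days. All 5 endothelial markers had a positive difference on both days, with none called (median 0.49 at 3 days and 0.47 at 14 days). Macrophage markers (6 genes) ran from 4.69 to 8.79 FPKM in sham (median 6.43) and from 1.64 to 12.2 in ligated libraries (5.39) at 3 days. At 14 days they ran from 1.48 to 10.87 FPKM in sham (3.75) and from 6.55 to 22.86 in ligated libraries (14.79), and the 3 of them that were tested had positive differences (median 0.94), with none called.

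Gfra3, the artemin co-receptor, had the largest difference of the 8 genes at both days. At 3 days it stood at 10.5, 6.62, 15.9 and 20.5 FPKM after ligation and at 3.26, 0.117, 2.81 and 7.22 after sham surgery. At 14 days it stood at 17.1, 17.6, 12.5 and 8.12 FPKM after ligation and at 2.54, 8.13, 2.68 and 4.15 after sham surgery. On each day 3 of 4 ligated libraries lay above all 4 sham libraries and the fourth lay under the highest sham library. Groups that do not overlap were found for 1.79% of genes with ligated SGCs higher at 3 days and for 1.69% at 14 days; Gfra3 was not among them.

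At 3 days Gfra3 averaged 13.4 ± 6.09 FPKM in ligated and 3.35 ± 2.93 in sham libraries (n = 4 each), a log2 difference of 1.93 ± 0.52 (SE; limma adjusted p = 0.269). The value in the authors' deposited table is 1.99 (adjusted p of 0.259). At 14 days the means were 13.8 ± 4.44 and 4.37 ± 2.61 FPKM (n = 4 each), a difference of 1.52 ± 0.52 (SE; limma adjusted p = 0.839). For that day the authors' deposited table gives 1.72 with an adjusted p of 0.00319. The difference between the days was −0.41 ± 0.73 (SE; limma adjusted p = 0.9995), with a 95% interval from −1.98 to 1.15.

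The part of RNA from neurons, endothelial cells or macrophages in the Gfra3 difference was not tested. The sham library with the highest neuron marker sum of the 16, 709.7 FPKM, held 3.26 FPKM of Gfra3. The ligated library with the lowest sum, 231.1 FPKM, held 8.12. At the other ends, the sham library with the lowest sum, 155.9 FPKM, held 7.22 FPKM of Gfra3. The ligated library with the highest sum, 668.7 FPKM, held 17.1. Within the 8 ligated libraries, Gfra3 had a Pearson r of 0.766 with the mean log2 level of the neuron markers. Within the 8 sham libraries that r was −0.362.

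Ntrk2 was the receptor with the highest level in all 16 SGC libraries. At 3 days it stood at 90.3, 79.8, 85.5 and 80.8 FPKM after ligation and at 94.1, 90.8, 104 and 108 after sham surgery. All 4 ligated libraries lay below all 4 sham libraries, a pattern shown by 2% of the genes tested at 3 days and by 2.38% at 14 days. The means were 84.1 ± 4.84 and 99.3 ± 8.26 FPKM (n = 4 each), a log2 difference of −0.24 ± 0.12 (SE; limma adjusted p = 0.571).

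At 14 days Ntrk2 stood at 85.9, 88.6, 75.6 and 100.2 FPKM after ligation and at 114, 96.5, 95.6 and 114 after sham surgery. Here 3 of 4 ligated libraries lay below all sham libraries. The means were 87.6 ± 10.1 and 105 ± 10.3 FPKM (n = 4 each), a log2 difference of −0.26 ± 0.12 (SE; limma adjusted p = 0.965). The authors' deposited tables give log2 fold changes of −0.23 for both days with adjusted p of 0.499 and 0.682. Of the 8 satellite glial markers, 3 had a positive difference at 3 days (median −0.12) and 2 at 14 days (median −0.16), with none called by limma. Their sums ran from 8615 to 12180 FPKM in sham (median 10500) and from 7679 to 11590 in ligated libraries (8589) at 3 days, and from 10780 to 13580 (12110) and from 10410 to 13490 (11690) at 14 days. The markers thus ran in both directions at 3 days. The potassium channel Kcnj10 was among those with a negative difference, at −0.28 (limma adjusted p = 0.513). The part of these markers in the Ntrk2 difference was not tested. The 95% intervals of the limma differences of Ntrk2, not adjusted for the number of genes, ran from −0.48 to 0.01 and from −0.51 to −0.01.

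Gfra2, the neurturin co-receptor, stood at 7.22, 11.2, 7.06 and 13.0 FPKM at 3 days after ligation and at 16.1, 12.2, 13.4 and 11.9 after sham surgery (−0.47 ± 0.24, SE; limma adjusted p = 0.593). At 14 days it stood at 11.4, 8.08, 7.16 and 9.86 FPKM after ligation and at 13.1, 10.7, 16.6 and 7.67 after sham surgery (−0.33 ± 0.24, SE; limma adjusted p of 1). The groups overlapped on both days. In sham SGCs Gfra2 had the next highest mean after Ntrk2 on both days, and in ligated SGCs Gfra3 did, with the range of Gfra2 overlapping it.

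The differences of Bdnf had opposite signs on the 2 days. At 3 days it stood at 0.0372, 0.722, 2.18 and 2.34 FPKM after ligation and at 4.82, 7.20, 2.53 and 0.507 after sham surgery (−0.94 ± 0.56, SE; limma adjusted p = 0.654). At 14 days it stood at 1.30, 7.32, 4.78 and 1.69 FPKM after ligation and at 2.56, 2.47, 0.828 and 0.685 after sham surgery (0.74 ± 0.56, SE; adjusted p of 1 by limma). The groups overlapped both times, and the difference between the days was 1.68 ± 0.80 (SE; limma adjusted p = 0.9995). In the authors' deposited tables Bdnf has log2 fold changes of −1.58 and 1.29 with adjusted p of 0.611 and 0.461.

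The remaining 4 receptors were low in SGCs after surgery, and their groups overlapped on both days. Ret, the signalling kinase, ran from 1.24 to 10.9 FPKM over the 16 libraries and Gfra1 from 1.12 to 6.49. Ngfr ran from 0.510 to 7.03 FPKM, and Ntrk3 was listed at 0 in 1 sham library and reached 11.6 in another. Log2 differences at 3 days were 0.15 for Ret, −0.31 for Gfra1, −0.56 for Ngfr and −0.56 for Ntrk3. At 14 days they were 0.25, 0.04, 0.42 and −0.04. Their adjusted p were between 0.784 and 1 by limma.

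**Figure D2:**
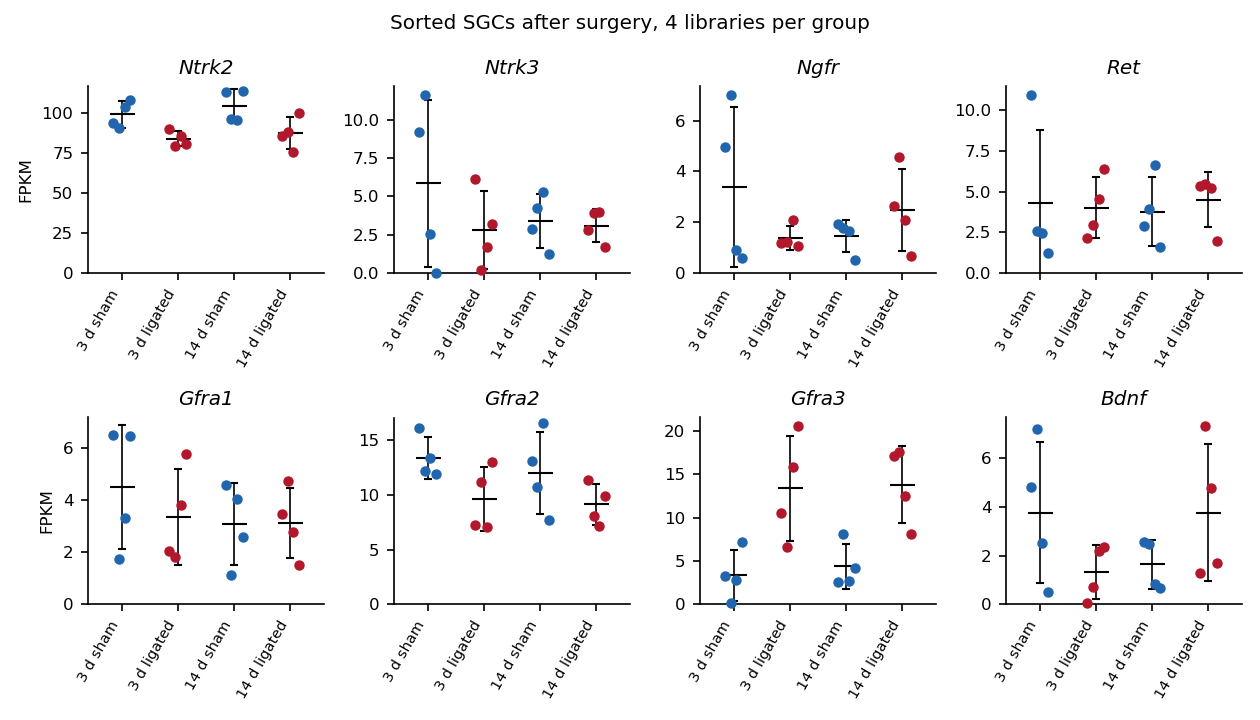
FPKM (y axis, from 0) of the 8 genes in sorted SGCs after sham surgery (blue) or ligation (red) at 3 and 14 days; points are the 4 libraries of a group, black bars the mean ± SD, drawn from 0 upwards. Gfra3 lies higher in most ligated libraries on both days, with overlap on each day. Ntrk2 lies lower in all 4 ligated libraries at 3 days and overlaps at 14 days, and the other genes overlap on both days.

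Over the 16 SGC libraries, several receptors varied with the mean log2 level of the 8 neuron markers. The relation was computed for the 8 genes, with permutation p over 100000 draws and adjustment over the 8. Each draw shuffled all 16 libraries across days and surgery groups, so these p take in group differences as well as spread within groups. Ret had a Pearson r of 0.875 (permutation p = 1e-05, the smallest these draws can give, adjusted p = 8e-05) and a Spearman rho of 0.826 (permutation p = 0.00014, adjusted p = 0.00112). Without the 2 libraries farthest from the median, sham library 4 of each day, r was 0.813. It was 0.793 within the 8 ligated libraries and 0.904 within the 8 sham libraries. Ret, the receptor shared by the GDNF family, thus followed the neuron markers in both surgery groups.

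Ngfr had an r of 0.741 (permutation p = 0.00118, adjusted p = 0.00472) and a rho of 0.765 (permutation p = 0.00086, adjusted p = 0.00344), and Ntrk3 had an r of 0.718 (permutation p = 0.00186, adjusted p = 0.00496) and a rho of 0.685 (permutation p = 0.00446, adjusted p = 0.0119). Without the 2 farthest libraries r was 0.649 and 0.575. Ntrk2 had a negative r of −0.578 (permutation p = 0.0191, adjusted p = 0.0382) and a rho of −0.629 (permutation p = 0.0105, adjusted p = 0.021), and r was −0.334 without the 2 farthest libraries, so that relation rests partly on them. Ntrk2 and the neuron markers thus ran in opposite directions, with an r of −0.591 within ligated and −0.699 within sham libraries.

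For the other 4 genes the adjusted permutation p was above 0.05. Bdnf had an r of 0.508 (permutation p = 0.0439, adjusted p = 0.0702) and a rho of 0.512 (permutation p = 0.0452, adjusted p = 0.0723). Gfra1 (r = 0.263, rho = 0.335), Gfra2 (r = 0.198, rho = 0.129) and Gfra3 (r = 0.12, rho = 0.312) had permutation p of at least 0.206. Without the 2 farthest libraries r was 0.597 for Gfra1, 0.144 for Gfra2 and 0.096 for Gfra3. Within the 8 ligated and the 8 sham libraries r was 0.766 and −0.362 for Gfra3, 0.698 and 0.0897 for Gfra1, and −0.091 and 0.695 for Gfra2. The differences between these pairs of r were not tested.

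**Figure D3:**
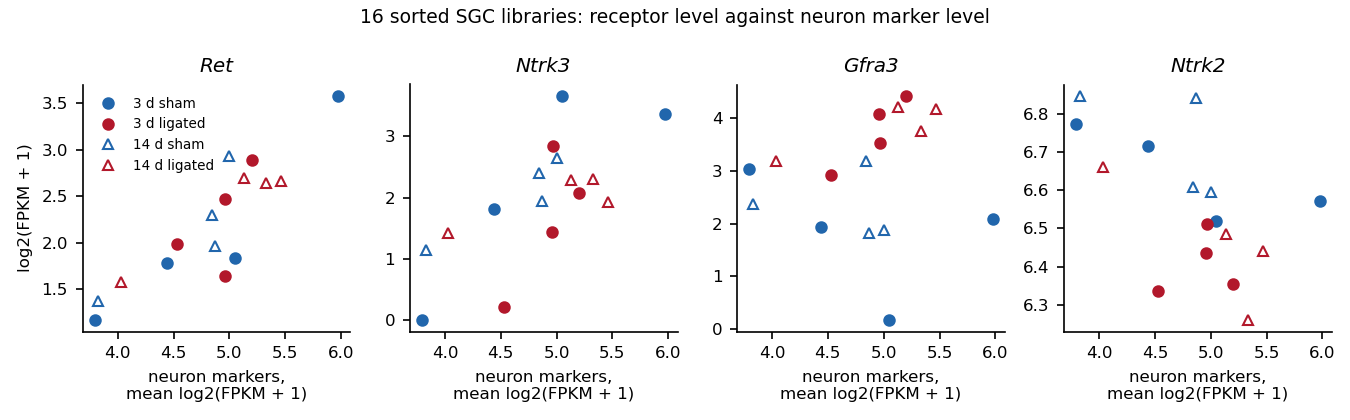
Level of Ret, Ntrk3, Gfra3 and Ntrk2 (y axes, log2(FPKM + 1)) against the mean log2(FPKM + 1) of 8 neuron markers (x axes) in 16 SGC libraries; blue is sham, red is ligated, filled circles are 3 days and open triangles 14 days. Ret and Ntrk3 rise from left to right, Ntrk2 falls, and for Gfra3 3 of 4 ligated libraries of each day lie above all sham libraries of that day.

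Of the 48 pathway genes, 36 were tested in SGCs after surgery and none was called by limma at 3 days, at 14 days or for the difference between the days. The medians were 0.03 at 3 days and −0.02 at 14 days, against −0.01 and −0.02 over all genes. Unadjusted p were under 0.05 for 1269 and 718 of the 13924 genes. In the authors' deposited table at 14 days, Sdc3, a proteoglycan that can bind GDNF family ligands, is the 1 pathway gene of 41 past 0.05, at −0.55 (adjusted p of 0.0359). At 3 days that count was 0 of the 39 with an adjusted p. Ligands were near the lower end of detection. Artn, the ligand of Gfra3, reached at most 0.208 FPKM in any SGC library after surgery, Nrtn 0.557, Gdnf 0.0324 and Ntf3 3.76. Ntf5 reached 0.256 and Pspn 0.763.

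The neuron libraries ask how injured neurons themselves carry these receptors 8 days after partial ligation. Ntrk2, the highest of the 8 genes in SGCs, was here the lowest. Gfra2 and Gfra3 were high, with group means of 119 to 156 FPKM for Gfra2 and 55.3 to 140 for Gfra3. Ntrk2 had the lowest mean of the 8 in every neuron group, between 0.324 and 6.60 FPKM over the 20 libraries. Ngfr (21.1 to 226.7 FPKM) and Ret (48.6 to 143) were high too, and Ntrk3 ran from 3.35 to 32.1. Gfra2 exceeded Ret in all 20 libraries, with ratios from 1.13 to 3.81, and Gfra1 was below Ret in all 20, with ratios from 0.0739 to 0.480.

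No member was called by limma between ligated and sham neurons, where 0.28% of 12145 genes were called, all of them higher. The authors' deposited table held Gfra3 and Bdnf as higher, 2 of the 8, and 1.7% of its genes as changed, 1.38% as higher and 0.323% as lower. Which libraries entered that table is not given in the sources used here. Gfra3 stood at 167, 88.0 and 98.7 FPKM in ligated males and at 39.8, 101.6 and 70.9 in sham males. In females it stood at 179, 118 and 124 FPKM after ligation and at 45.0, 62.2 and 86.3 after sham surgery. The female groups did not overlap and the male groups did. How many of all genes have female groups that do not overlap was not computed.

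Over both sexes Gfra3 averaged 129 ± 36.5 FPKM in ligated and 67.6 ± 23.8 in sham libraries (n = 6 each). The log2 difference was 0.95 ± 0.27 (SE; limma adjusted p = 0.331), and 4 of 6 ligated libraries lay above all 6 sham libraries. Groups of 6 that do not overlap were found for 0.692% of genes with ligated neurons higher and for 0.0988% with them lower. The authors' deposited table gives 0.90 with an adjusted p of 0.000421. The female difference exceeded the male difference by 0.36 ± 0.54 (SE; limma adjusted p of 1). For the difference between the sexes no gene was called, and 130 had an unadjusted p under 0.05.

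Bdnf, which peptidergic nociceptors release, stood at 26.4, 27.0 and 21.6 FPKM in ligated males and at 17.9, 16.8 and 26.8 in sham males. In females it stood at 39.2, 25.8 and 26.0 FPKM after ligation and at 16.7, 18.4 and 17.3 after sham surgery. As for Gfra3, the female groups did not overlap and the male groups did. The share of all genes with that pattern was not computed, and no gene was called for the difference between the sexes. The means over both sexes were 27.6 ± 5.96 and 19.0 ± 3.87 FPKM (n = 6 each), a log2 difference of 0.52 ± 0.20 (SE; limma adjusted p = 0.999). The authors' deposited table gives 0.61 with an adjusted p of 0.0136.

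The ligated side against the opposite side gave differences in the same direction for both genes, in libraries that the sham comparison does not use. Gfra3 stood at 188, 110, 138 and 82.9 FPKM on the ligated side and at 89.3, 34.5, 52.1 and 45.1 on the opposite side. Of the ligated libraries 3 of 4 lay above all opposite-side libraries. The log2 difference was 1.24 ± 0.33 (SE; limma adjusted p = 0.117). Without the opposite-side library at 89.3 FPKM it was 1.495 with an adjusted p of 0.0421, the 1 call among the 8 genes in any setting of this comparison.

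Bdnf stood at 27.3, 19.4, 25.0 and 28.1 FPKM on the ligated side and at 16.6, 7.90, 15.9 and 19.2 on the opposite side. The groups did not overlap, as was true of 2.68% of genes in that direction and of 1.78% in the other. The log2 difference was 0.76 ± 0.25 (SE; limma adjusted p = 0.236). Over all genes limma called 0.667% in this comparison, 0.659% as higher and 0.00823% as lower.

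The other receptors showed no call in neurons. Gfra2 stood at 106, 133, 142.5 and 127 FPKM on the ligated side and at 168, 162, 154 and 142.1 on the opposite side, with 3 of 4 ligated libraries below all others, a log2 difference of −0.30 ± 0.22 (SE; limma adjusted p = 0.679). Against sham it was −0.22 ± 0.18 (SE; limma adjusted p = 0.999). Ret had differences of −0.09 against sham and −0.32 against the opposite side, and Gfra1 of 0.19 and 0.28. Ngfr (0.11 and 0.25), Ntrk3 (−0.14 and 0.07) and Ntrk2 (−0.48 and −0.16) had limma adjusted p of at least 0.896. Intervals were widest for Ngfr and Ntrk2: against sham, the 95% interval ran from −0.76 to 0.97 for Ngfr and from −1.38 to 0.42 for Ntrk2.

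Marker sums varied within the neuron groups. Myelinating Schwann cell markers ran from 1009 to 2845 FPKM in ligated and from 1095 to 2371 in sham libraries of known sex, and nociceptor markers from 4643 to 7123 and from 3213 to 6565. Neuron markers ran from 6872 to 9804 FPKM in ligated and from 6892 to 8882 in sham libraries. Large-diameter neuron markers (4 genes) ran from 64.88 to 69.49 FPKM in ligated females (median 66.6) and from 48.55 to 216.9 in sham females (180.5). In males they ran from 40.47 to 77.99 FPKM after ligation (57.56) and from 43.95 to 75.42 after sham surgery (64.66). Against sham, 1 of the 4 had a positive difference (median −0.27), with none called by limma. Erythrocyte and neutrophil markers ran from 467.6 to 14350 FPKM in ligated and from 297.3 to 12190 in sham libraries. Endothelial markers (4 genes in this table) ran from 15.22 to 39.32 FPKM on the ligated and from 42.16 to 119.1 on the opposite side. The part of these markers in the differences was not tested. The neuron table has 3 of the 8 satellite glial markers, whose sum ran from 36.5 to 72.4 FPKM, and Fabp7, the marker with the highest level in SGCs, reached at most 10.9 FPKM in any neuron library.

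**Figure D4:**
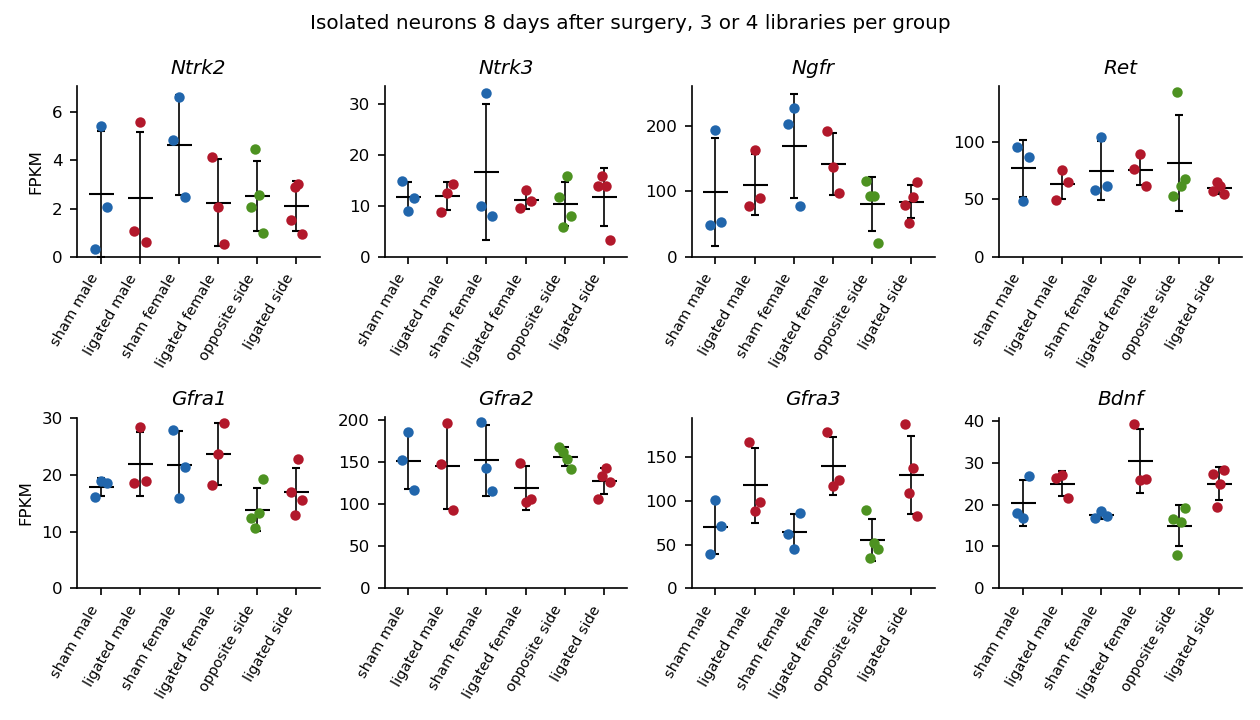
FPKM (y axis, from 0) of the 8 genes in isolated neurons 8 days after surgery; blue is sham, red is ligated, green is the opposite side of ligated mice, points are the 3 or 4 libraries of a group and black bars the mean ± SD, drawn from 0 upwards. Gfra3 and Bdnf lie higher in ligated than in sham or opposite-side groups, with overlap of both genes in males and of Gfra3 between the sides, and Ntrk2 stays under 7 FPKM.

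Of the pathway list, 34 genes were tested in neurons and none was called by limma in any of the 3 comparisons. The median difference was −0.12 against sham and −0.19 against the opposite side, with −0.04 and −0.01 over all genes. In the authors' deposited table, 2 of 38 pathway genes with an adjusted p are past 0.05, both higher after ligation: Arc, an activity-regulated gene, by 1.09 (adjusted p of 0.0032) and Maged1, an adaptor that binds p75NTR, by 0.57 (adjusted p of 0.0381). Among the ligands, Ntf3 was measured at up to 2.72 FPKM and was listed at 0 in all 4 libraries of the ligated side. The authors' deposited table gives mean normalised counts in neurons of 16.4 for Ntf3 and 4.14 for Pspn, and of 0.33, 0.29 and 0.09 for Nrtn, Gdnf and Artn, against 1985 for Bdnf.

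**Figure D5:**
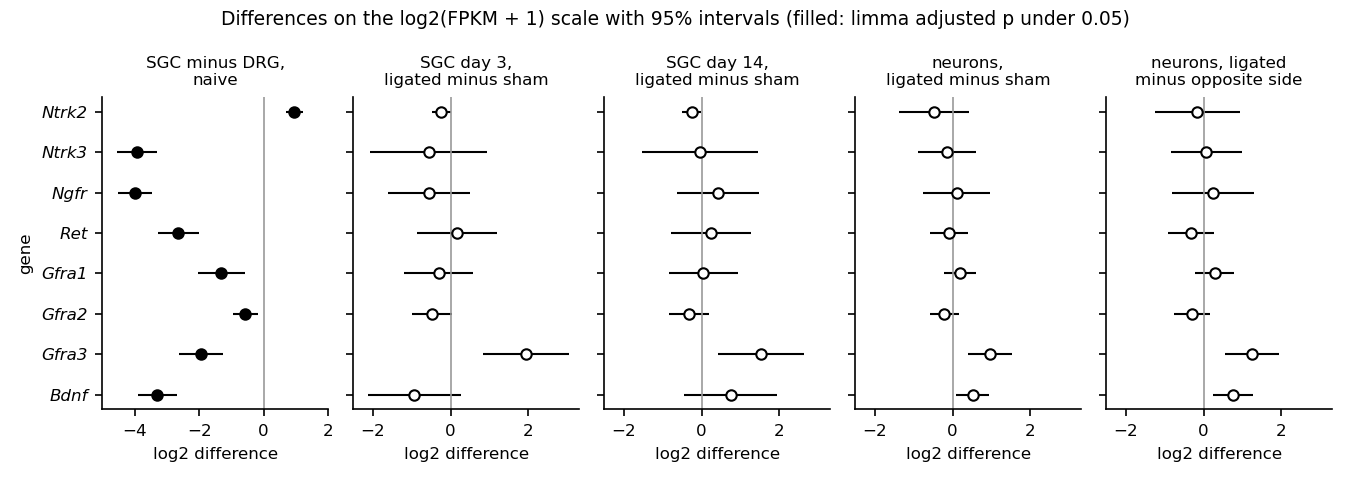
Log2 differences (x axes, log2(FPKM + 1) scale) of the 8 genes (y axis) in 5 comparisons, with 95% intervals from limma; filled points have a limma adjusted p under 0.05. All 8 genes are filled for naive SGCs against DRGs, and in the 4 ligation comparisons no point is filled and Gfra3 lies farthest to the right.

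The promoter of Bdnf was read because the gene was higher after ligation in the authors' deposited neuron table. RefSeq (GRCm38.p6) lists 7 Bdnf starts, and the 250 bases before each were searched on both strands for the AP-1 motif TGANTCA and the cAMP response element TGACGTCA. One start had an AP-1 match, at chr2:109676782-109677031 on the plus strand, and none had an exact TGACGTCA. Forms of the cAMP response element that differ from these letters were not searched. The matched letters are in capitals.
Bdnf: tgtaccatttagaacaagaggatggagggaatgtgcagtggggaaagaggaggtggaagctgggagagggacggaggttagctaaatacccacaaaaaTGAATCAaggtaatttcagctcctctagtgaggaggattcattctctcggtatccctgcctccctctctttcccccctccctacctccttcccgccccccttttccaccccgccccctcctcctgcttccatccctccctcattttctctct
Of 32851 promoters of that length, 6.75% held the AP-1 motif and 1.55% held TGACGTCA. These shares are for single windows, while Bdnf was searched in 7. The share of genes with a match in any of several windows was not computed. The windows read for Ntrk2, Ngfr and Gfra1 held neither motif. Those of Ngfr and Gfra1 each overlap 1 exon of their gene. A match describes letters and not a bound site, and the FPKM values do not tell which Bdnf start was used.

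The genes whose levels ran most like those of each receptor were named by Pearson r of log2(FPKM + 1) over all libraries of a table, as a description. Over the 16 SGC libraries after surgery, Gfra3 ran most like Jpt1 (r = 0.915), Lgals3 (0.903), Sox11 (0.902), Sprr1a (0.898) and Kif22 (0.893). Over the 20 neuron libraries it ran most like Jpt1 (0.907), Rnh1 (0.896), Gal (0.890), Tubb6 (0.872) and Cyp1b1 (0.870). Sox11, Sprr1a and Gal are genes that injured sensory neurons switch on, and Jpt1 headed the list of Gfra3 in both tables.

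Ntrk2 over the same SGC libraries ran most like Slc7a2 (0.901), an amino acid transporter, Hsd17b12 (0.877), Ndrg1 (0.870), the bicarbonate transporter Slc4a4 (0.857) and Ppargc1a (0.854). Over the 8 naive libraries its list held Cnmd and Gpr137b (0.998 each) and Selenop, Glul and Scd2 (0.996 each), where Glul, glutamine synthetase, is a glial marker. Ret in SGCs after surgery ran most like the neuronal filament gene Prph and Ywhag (0.923 each), Rgs4 (0.902), Prune2 (0.893) and Snhg11 (0.889), and Ntrk3 most like Nrsn1 and Dock11 (0.896 each). In neurons, Bdnf ran most like Plin2 (0.862), Gfra2 like Syp (0.857), which encodes the synaptic vesicle protein synaptophysin, and Ret like Nudt3 (0.924). The libraries of a table share its groups, so these r follow group differences as well as spread within groups.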

How the data were processed

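Bulk RNA-seq of 44 mouse libraries was used as deposited. The authors' tools were STAR, Cufflinks, SAMtools and DESeq2 and their build mm10, per the submitters' processing notes; versions and order are not given in the sources used here. The authors deposited FPKM in 3 tables scaled separately, 1 of them with decimal commas. Their 3 comparison tables hold, per the file headers, a mean normalised count (a signal), log2 fold changes and their errors, a test statistic (a score) and p-values. Their fold changes were turned so that positive means higher after ligation. Genes past 0.05 numbered 179 at 3 days, 202 at 14 days and 237 in neurons, of which 126, 158 and 220 were also tested here. As deposited, their signs were opposite to the FPKM difference in 125 of 126, 157 of 158 and 220 of 220. A comparison table that names no comparison was not used.

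FPKM lines sharing an identifier were summed, and names came from GENCODE M21 (44952 of 45882 and 12121 of 12170 identifiers matched). Genes that reached 1 FPKM in enough libraries to fill the smallest group were tested on log2(FPKM + 1). The test was that of limma 3.58.1 (R 4.3.3), two-sided, with the variance prior following the mean, all groups of a table in 1 fit, with Benjamini-Hochberg adjustment over all genes and calls under 0.05. The comparison of ligated with sham neurons takes the mean of the male and female differences. There were 7 comparisons. The fit was tested on simulated data. Alternatives were a pseudocount of 0.1, no filter, quantile normalization, only the groups compared, a replicate block and leaving out each library. Depth per library is unknown. No pair of libraries was identical. The 8 genes, the pathway list and the marker lists were chosen with earlier results of these data known. The text names all 8 genes, each called pathway gene and the ligands, apart from items of the pathway list that are counted but not reported here, and for likeness the genes with the highest Pearson r, up to 5 per gene. Neuron columns could be matched to groups but not to single samples. Sequences came from GENCODE M21 transcripts and RefSeq, which had promoters for 4 of the 8 genes. Figures were made with Matplotlib 3.10.9 in Python 3.11.15, with pandas 2.3.3 and SciPy 1.17.1.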

Additional observations from a re-analysis of the deposited data

Results flagged for a closer look

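Each of the 8 genes was checked in each of the 8 groups of 4 libraries, and in 6 of these 64 sets 1 library stood far from the other 3; chance gives about 5% of such sets. Ntrk3 in naive SGCs had 1 library at 3.40 FPKM with the others at 0.890 to 1.19. Ngfr in ligated SGCs at 3 days had 1 at 2.09 FPKM with the others at 1.06 to 1.22. Ret in sham SGCs at 3 days had 1 at 10.9 FPKM with the others at 1.24 to 2.57; that library also had the highest neuron marker sum, 709.7 FPKM. Ret in ligated SGCs at 14 days had 1 at 1.98 FPKM with the others at 5.24 to 5.46, and that library had the lowest marker sum of its group, 231.1. In neurons, Ntrk3 on the ligated side had 1 library at 3.35 FPKM with the others at 13.9 to 15.9. Ret on the opposite side had 1 library at 143 FPKM with the others at 52.5 to 67.4.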

How the results depend on the processing

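The count of called genes among the 8 changed in 2 comparisons. Ligated against opposite side gave 0 to 1 over the fits that leave out 1 library, the 1 being Gfra3 without the opposite-side library at 89.3 FPKM. In naive SGCs against DRGs the count was 8. It was 7 under quantile normalization and with the replicate block, where Gfra2 missed the threshold (adjusted p = 0.0773 and 0.0517), and 7 to 8 over the fits that leave out 1 library. The block changed no other call; correlations of same-numbered libraries ran from −0.0758 to 0.186, so the numbers were not taken to pair libraries. With the block, all genes called were 5187 against 5789 in naive libraries, 1 against 9 in SGCs at 3 days and 0 against 1 at 14 days. For the neurons, no paired analysis was possible because their columns carry no replicate number. Over all genes, the 3-day count of 9 was 14 with a pseudocount of 0.1, 1 with no filter and 4 with only the groups compared; that of 1 at 14 days was 6 with only the groups compared, and that of 81 between sides was 36.

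Differences that turned sign were uncalled, and the cause was not tested. Ntrk2 between the days was 0.0174 under quantile normalization. Leaving out 1 library at a time gave log2 ranges of −0.16 to 0.65 for Ret at 3 days. At 14 days they were −0.34 to 0.16 for Ntrk3, −0.24 to 0.26 for Gfra1 and −0.0048 to 0.52 for Ret. Between the days they were −0.40 to 0.41 for Ret, −0.0908 to 0.0429 for Ntrk2, −0.83 to 0.13 for Gfra3 and −0.0403 to 0.30 for Gfra2. In neurons against sham they were −0.13 to 0.42 for Ngfr, −0.32 to 0.15 for Ntrk3 and −0.24 to 0.0413 for Ret. Between the sexes they were −0.32 to 0.0659 for Gfra1, −0.52 to 0.0112 for Gfra2 and −0.66 to 0.28 for Ntrk3. Between the sides they were −0.14 to 0.53 for Ntrk3, −0.40 to 0.0846 for Ntrk2 and −0.30 to 0.50 for Ngfr. With no counts, the precision of low levels such as those of Ngfr and Bdnf in SGCs cannot be given.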
